A study of Homo sapiens with 6 samples.

Results

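The BCL2 family genes of HT29 cells were followed here by name, with 10 members taken by gene symbol from the 28278 genes in the count tables. They were the anti-apoptotic BCL2, BCL2L1 and MCL1, the effectors BAX and BAK1, and the BH3-only BID, BIK, BBC3, PMAIP1 and BCL2L11. HT29 is a human colorectal adenocarcinoma line. The 3 siALDOA libraries came from cells given siRNA against ALDOA, the aldolase of glycolysis, and the 3 siControl libraries came from cells given a scrambled siRNA, with RNA taken from both at 48 h. All libraries thus share the transfection. The labels name a siRNA against ALDOA without its sequence or number and no untransfected cells, so an effect of losing ALDOA and another effect of that siRNA cannot be told apart.

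BCL2 proteins decide whether the outer mitochondrial membrane stays sealed. BAX and BAK1 open it and release cytochrome c, and the anti-apoptotic members hold them in check. The BH3-only proteins bind the anti-apoptotic members through a short helix, the BH3 domain, and some also engage the effectors directly. Colorectal cancer cells are known to lean on BCL2L1, which encodes BCL-XL, and on MCL1, a protein with a short life. Much of the control in this family acts on the proteins, which counts of mRNA do not show.

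All 10 members carry a BH3 core, and its coding bases are shown since they define the family and sit in genes whose mRNA levels lay far apart. The core was searched as a leucine codon, 3 codons of any kind, a glycine or alanine codon and an aspartate codon, and each coding sequence held 1 match. Capitals mark the 18 bases of the core, with 6 bases in lower case on each side, 5′ to 3′ on the coding strand, from GENCODE release 44 on hg38.
BCL2: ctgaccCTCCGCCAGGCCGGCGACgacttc
BCL2L1: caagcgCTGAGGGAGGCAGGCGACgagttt
MCL1: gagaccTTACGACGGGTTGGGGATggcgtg
BAX: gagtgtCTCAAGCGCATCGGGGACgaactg
BAK1: cggcagCTCGCCATCATCGGGGACgacatc
BID: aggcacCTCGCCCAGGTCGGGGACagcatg
BIK: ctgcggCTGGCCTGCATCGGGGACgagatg
BBC3: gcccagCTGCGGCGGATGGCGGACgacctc
PMAIP1: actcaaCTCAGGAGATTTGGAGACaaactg
BCL2L11: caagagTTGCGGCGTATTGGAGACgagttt

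The aspartate codon was GAC in 9 members and GAT in MCL1. The codon before it read for glycine in 9 members and for alanine in BBC3. Over the 45 pairs of members, from 7 to 15 of the 18 core bases were identical, with a median of 10. BAK1 and BIK were the pair with 15 identical bases. The same base stood in all 10 members at 4 of the 18 positions. The codons searched for fix these 4 in advance, and they count in the identity of every pair. All of these stretches lie within coding exons.

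The libraries held from 27277538 to 33237914 counts on genes, and ribosomal RNA genes took 13.1%, 7.71% and 8.11% of them with siALDOA and 17.4%, 15.3% and 8.15% with siControl. ALDOA was at 283, 305 and 279.7 CPM (counts scaled to a common library size by TMM) with siALDOA and at 592, 637 and 668 CPM with siControl. Its log2 fold change was -1.13 (SE, the standard error of the fit, 0.060; edgeR adjusted p = 6.95e-11). Of 11 markers of colon epithelium, 10 passed the filter on low counts, and LGALS4 was listed at 0 counts in every library. Whether a gene listed at 0 throughout was lacking in the cells or missed by the counting cannot be told apart here. The summed level of these markers was from 9479 to 9811 CPM with siALDOA and from 10040 to 10610 CPM with siControl. Most of this sum was KRT8 and KRT18. Of the 10 tested markers, 8 had a log2 fold change below 0, with a median of -0.12, and the groups did not overlap for 6, beside 27.7% of all tested genes. In edgeR KRT18 was lower (-0.28 on the log2 scale, adjusted p = 0.0152) and KRT19 higher (0.38, adjusted p = 0.000577), and CEACAM5 was also called lower by DESeq2 and limma-voom and KRT8 by limma-voom. The part of these markers in the members' values was not tested. The 6 fibroblast markers summed to between 3.05 and 4.46 CPM. The 6 leukocyte and blood markers summed to between 16.3 and 17.9 CPM with siALDOA and between 12.8 and 14.5 CPM with siControl, nearly all of it CD14, which was higher with siALDOA (0.32 on the log2 scale, edgeR adjusted p = 0.0485) in edgeR and DESeq2 but not in limma-voom (0.0525). The defining PTPRC, TYROBP and CD3E had at most 1 count in any library.

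Of the 9 tested members, 0 passed an adjusted p < 0.05 in edgeR's quasi-likelihood test, limma-voom or DESeq2, which gave BIK no adjusted p. BCL2 did not pass the filter on low counts and was not tested. Over all 15307 tested genes, 9.66% were called at this threshold. At an unadjusted p < 0.05, 1 member was counted by each of the 3 tools, and it was BID, against 23.6% of all tested genes by edgeR. With the cutoff of the study's methods, an unadjusted 0.01, edgeR counted 0 members and 12.5% of all tested genes. The CPM of the groups did not overlap for 1 of the 9 members, again BID, against 27.7% of all tested genes. Every tested member but BIK had a mean above 10 CPM. Among tested genes of at least 10 CPM, edgeR called 13.1% at an adjusted p < 0.05, and the groups did not overlap for 32.9%.

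All 9 log2 fold changes were above 0, from 0.011 to 0.35. Their median was 0.063, beside 0.0016 over all tested genes, of which 7695 were above 0 and 7612 below. Leaving out 1 library moved the estimates from 0.011 to 0.088 for BCL2L1, from 0.0076 to 0.044 for BAX and from 0.0063 to 0.10 for BBC3, and scaling by library totals only gave 0.12, 0.10 and 0.14. Leaving out single libraries put BIK, PMAIP1 and BCL2L11 below 0 in 1, 2 and 1 of 6 such fits. The median size of the change, without its sign, was 0.063 for the members and 0.13 for all tested genes. For the 8 members other than BIK, which had from 312 to 11705 counts per library, the 95% intervals ran from a fold of 0.859 to a fold of 1.27. The intervals rest on 3 libraries a group, which the labels call biological replicates.

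**Figure D1:**
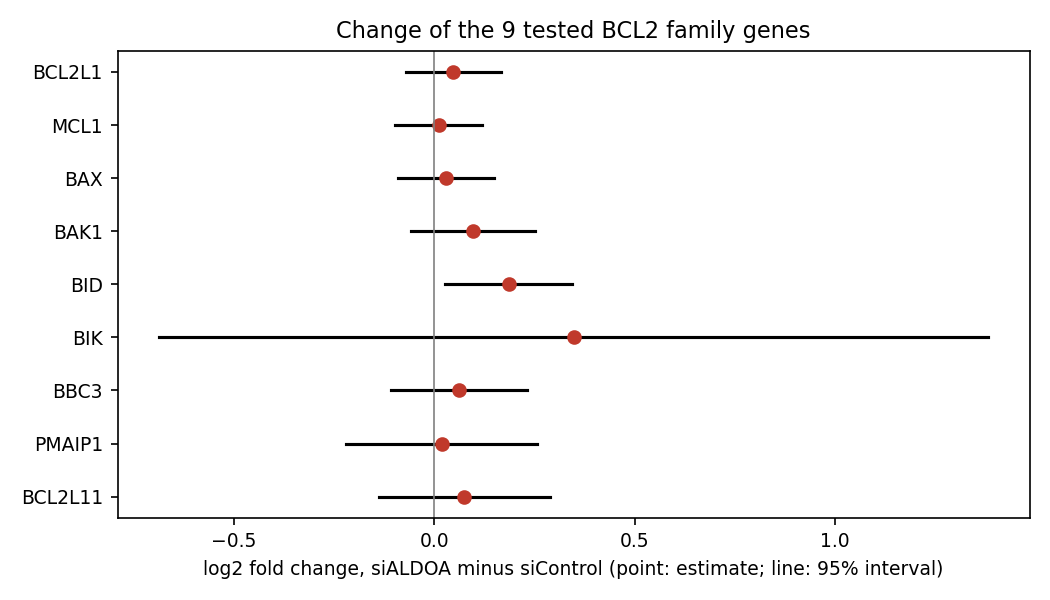
The points give the log2 fold change (siALDOA minus siControl) of the 9 tested members and the lines the 95% interval of edgeR's fit. The interval of BID runs from 0.028 to 0.34 and does not reach 0, that of BIK runs from -0.69 to 1.38, and the others include 0.

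Among the anti-apoptotic members, MCL1 (ENSG00000143384, chromosome 1, 150560895 to 150579738) was the most even. It was at 355, 359 and 355 CPM with siALDOA and at 353, 353 and 355 CPM with siControl. The ranges overlapped, with a mean of 356 ± 2.25 CPM (SD, n = 3) against 354 ± 1.49 CPM (SD, n = 3). The log2 fold change was 0.011 (SE 0.052), with a 95% interval from -0.098 to 0.12 and an edgeR adjusted p = 0.927. Its BH3 core printed above lies in exon 1 of 3, at chr1:150578871-150578900 on the minus strand. MCL1 shares 328 exonic bases with ADAMTSL4-AS1, which had at most 13 counts in a library.

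BCL2L1 (ENSG00000171552, chromosome 20, 31664452 to 31723989), the gene of BCL-XL, stood at 301, 322 and 335 CPM with siALDOA. In siControl it stood at 308, 302 and 315 CPM, so the lowest library of all was siALDOA replicate 1 and the highest siALDOA replicate 3. The fitted log2 difference was 0.048 (SE 0.057, edgeR adjusted p = 0.669), with a 95% interval from -0.070 to 0.17. The antisense gene ABALON shares 1735 exonic bases with BCL2L1 and held from 3573 to 4450 counts per library. The strand setting of the counting is not given in the sources used here, so reads of BCL2L1 and ABALON cannot be told apart. The log2 fold change of ABALON was 0.044 (SE 0.059). The counts are per gene and do not separate the long form of BCL2L1 from the short form, which promotes cell death.

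BCL2 itself (ENSG00000171791, chromosome 18, 63123346 to 63320128), the founding member of the family, was close to silent. It had 2, 3 and 2 counts with siALDOA and 4, 3 and 0 counts with siControl. Each group thus summed to 7 counts, which gave 0.0811 CPM with siALDOA (exact Poisson 95% interval 0.0326 to 0.167) and 0.0740 CPM with siControl (0.0297 to 0.152). These intervals cover counting error only. A change of BCL2 was not detectable at this depth, and without the filter its log2 fold change was 0.10 (edgeR adjusted p = 0.982). Its BH3 core lies in exon 2 of 3, at chr18:63318355-63318384 on the minus strand, and that of BCL2L1 in exon 2 of 3, at chr20:31721928-31721957 on the minus strand.

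**Figure D2:**
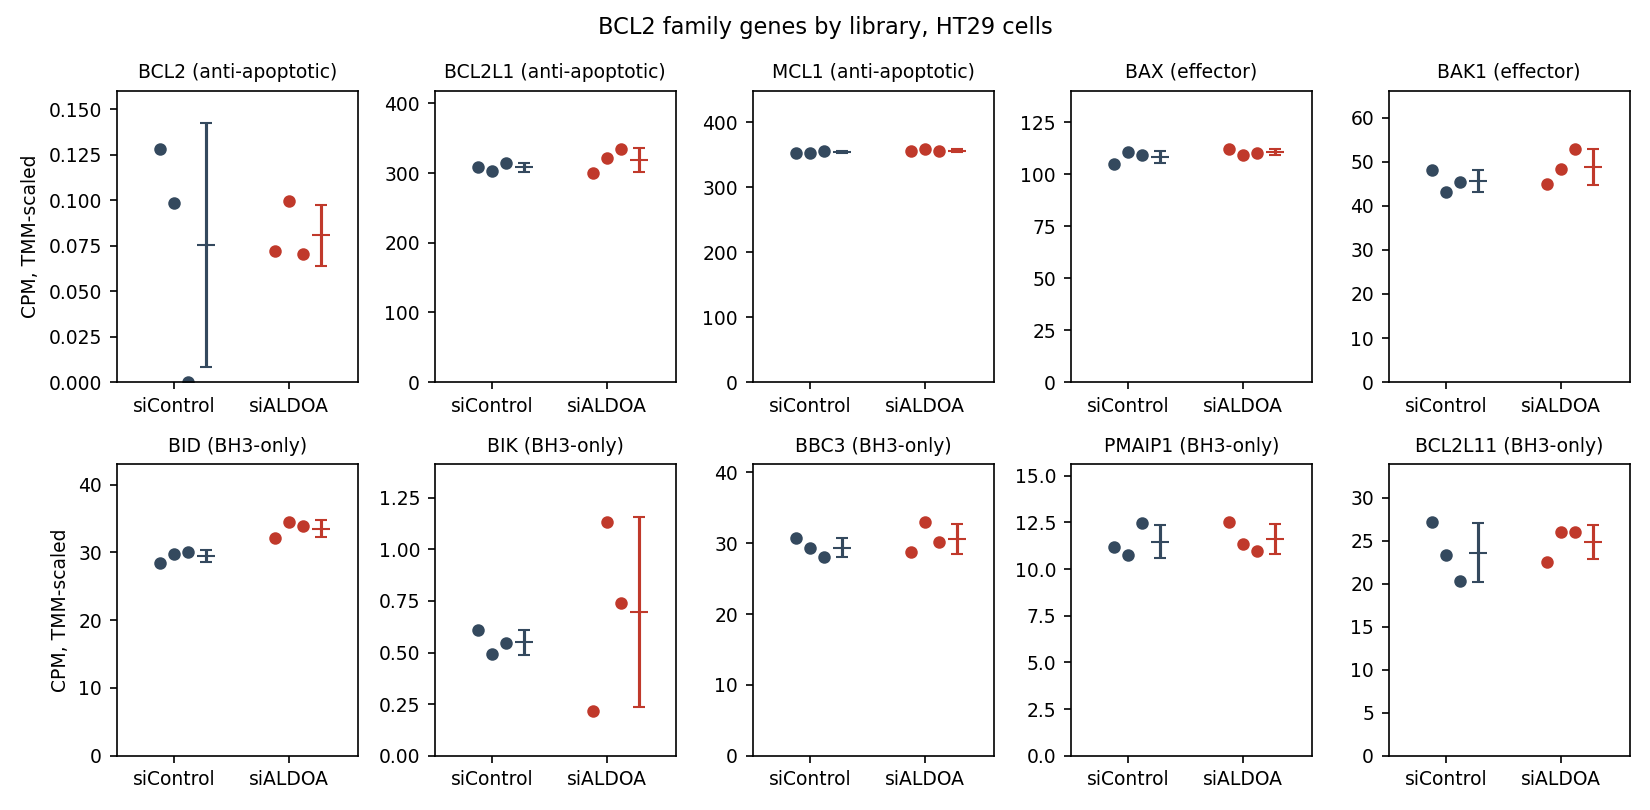
Each panel shows the CPM of 1 member in the 3 siControl libraries (dark) and the 3 siALDOA libraries (red), with the mean and SD as a bar beside the points and every axis from 0. The siALDOA points lie above all siControl points for BID, from 32.1 to 34.4 against 28.5 to 30.1 CPM, and the groups overlap in the other 9 panels.

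Neither of the effectors, which form the pores, passed the test. BAX (ENSG00000087088, chromosome 19, 48954815 to 48961798) was at 112, 109 and 110.5 CPM with siALDOA and at 105, 111 and 109.5 CPM with siControl. The ranges overlapped, with siControl replicate 1 the lowest. The log2 fold change of BAX was 0.030 (SE 0.057), with a 95% interval from -0.089 to 0.15 and an edgeR adjusted p = 0.804. Its BH3 core lies in exon 3 of 6, at chr19:48955781-48955810 on the plus strand.

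BAK1 (ENSG00000030110, chromosome 6, 33572547 to 33580293) was at 44.8, 48.4 and 52.9 CPM with siALDOA and at 48.2, 43.2 and 45.3 CPM with siControl. The highest library was siALDOA replicate 3 and the lowest siControl replicate 2, and the groups overlapped. The log2 fold change was 0.097 (SE 0.075, edgeR adjusted p = 0.475), and its 95% interval ran from -0.059 to 0.25. Without siALDOA replicate 1 it was 0.15, and without siALDOA replicate 3 it was 0.033. Its BH3 core lies in exon 4 of 6, at chr6:33575393-33575422 on the minus strand.

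Of the BH3-only members, BID came closest to the threshold. BID (ENSG00000015475, chromosome 22, 17734138 to 17774770) encodes the protein that caspase-8 cuts to link death receptors with mitochondria. It was at 32.1, 34.4 and 33.9 CPM with siALDOA and at 28.5, 29.8 and 30.1 CPM with siControl. The means were 33.5 ± 1.22 CPM (SD, n = 3) and 29.4 ± 0.856 CPM (SD, n = 3), and every siALDOA library was above every siControl library. The fitted log2 difference was 0.19 (SE 0.076), a fold of 1.14 with a 95% interval from 1.02 to 1.27. The edgeR p was 0.0237 before and 0.135 after adjustment over all tested genes, so BID did not pass. Its p ranked at 2682 among the 15307 tested genes. Over the 14 alternatives the adjusted p of BID lay between 0.0990 with a replicate block and 0.299 without siALDOA replicate 2. Its BH3 core lies in exon 4 of 6, at chr22:17739421-17739450 on the minus strand.

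BBC3 (ENSG00000105327, chromosome 19, 47220822 to 47232766) encodes PUMA, which binds all main anti-apoptotic members. Its level was 28.8, 32.9 and 30.2 CPM with siALDOA and 30.8, 29.3 and 28.04 CPM with siControl, with overlap between the groups. The log2 fold change was 0.063 (SE 0.081, edgeR adjusted p = 0.703), with a 95% interval from -0.11 to 0.23. PMAIP1 (ENSG00000141682, chromosome 18, 59899996 to 59904305) encodes NOXA, which binds MCL1. It was at 12.5, 11.3 and 10.98 CPM with siALDOA and at 11.2, 10.7 and 12.4 CPM with siControl. The groups overlapped, and 1 library of each group stood above the other 4. Its log2 fold change was 0.019 (SE 0.11, edgeR adjusted p = 0.945), with a 95% interval from -0.22 to 0.26. The BH3 core of BBC3 lies in exon 3 of 4, at chr19:47226585-47226614 on the minus strand, and that of PMAIP1 in exon 2 of 2, at chr18:59902667-59902696 on the plus strand.

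BCL2L11 (ENSG00000153094, chromosome 2, 111119378 to 111168444) encodes BIM, a broad binder of the anti-apoptotic members. It was at 22.6, 26.0 and 26.0 CPM with siALDOA and at 27.2, 23.4 and 20.3 CPM with siControl. The siControl libraries spanned the siALDOA libraries on both sides. The fitted log2 difference was 0.075 (SE 0.10, edgeR adjusted p = 0.719), with a 95% interval from -0.14 to 0.29. It was 0.19 without siControl replicate 1 and -0.024 without siControl replicate 3. BCL2L11 shares 727 exonic bases with MIR4435-2HG on the opposite strand, which had from 145 to 196 counts per library. Its BH3 core lies in exon 3 of 4, at chr2:111150097-111150126 on the plus strand.

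BIK (ENSG00000100290, chromosome 22, 43110750 to 43129712), a BH3-only gene whose protein sits largely at the endoplasmic reticulum, was the lowest of the tested members. It had 6, 34 and 21 counts with siALDOA and 19, 15 and 18 counts with siControl. The siALDOA libraries held both the lowest and the highest count, at 0.216 and 1.13 CPM, while siControl lay between 0.492 and 0.609 CPM. The log2 fold change of 0.35 (SE 0.50, edgeR adjusted p = 0.732) had a 95% interval from -0.69 to 1.38. It was 0.77 without siALDOA replicate 1 and -0.20 without siALDOA replicate 2, so that 1 library decided its direction. With all libraries kept, BIK had 0.081 in limma-voom and 0.21 with the replicate number as a block. Its BH3 core lies in exon 3 of 5, at chr22:43127710-43127739 on the plus strand.

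Within siALDOA, replicate 1 had the lowest CPM for 6 of the 9 tested members. That library also had the largest ribosomal RNA share of the siALDOA libraries, while siControl replicates 1 and 2 had larger shares still. Of all libraries, siControl replicate 1 had the largest share, and it was the lowest for BAX and BID and the highest for BCL2L11. The part of that share in the members' values was not tested. Without siALDOA replicate 1, 0 members passed an adjusted p < 0.05 in edgeR, and BID had an unadjusted p of 0.0133, the lone member under 0.05. Without siALDOA replicate 2, siALDOA replicate 3 or siControl replicate 1, 0 members were under an unadjusted 0.05 in edgeR (BID at 0.0759, 0.0594 and 0.0720).

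Levels of different genes were set side by side as RPKM, the CPM per kilobase of the union of annotated exons. With all its counts, BCL2L1 was the highest at 76.1 ± 4.09 RPKM (SD, n = 3) with siALDOA and 73.6 ± 1.52 RPKM (SD, n = 3) with siControl. MCL1 followed at 57.3 ± 0.361 and 56.8 ± 0.239 RPKM, and BAX at 42.8 ± 0.554 and 41.9 ± 1.16 RPKM. BAK1 was at 22.0 ± 1.83 and 20.6 ± 1.14 RPKM. With the counts of ABALON taken off in each library, a choice made after seeing the data, BCL2L1 was at 43.9 ± 2.50 and 42.3 ± 0.666 RPKM, below MCL1 and near BAX. The full length of 4197 bases was kept for this, although 1735 of them are shared with ABALON. That value is therefore too low if the counts taken off were reads of BCL2L1. The place of BCL2L1 in the order is not settled by these counts, while MCL1 stood above both effectors in every library with these lengths.

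The BH3-only genes lay lower on the same scale. BBC3 was at 9.62 ± 0.665 RPKM with siALDOA and 9.22 ± 0.427 RPKM with siControl (SD, n = 3), BID at 7.58 ± 0.276 and 6.66 ± 0.194 RPKM, and PMAIP1 at 5.31 ± 0.363 and 5.24 ± 0.404 RPKM. BCL2L11 was at 3.69 ± 0.296 and 3.50 ± 0.510 RPKM and BIK at 0.731 ± 0.483 and 0.577 ± 0.0620 RPKM. BCL2 reached at most 0.0102 RPKM in any library. With all counts of BCL2L1, no neighbours in this order of 10 overlapped over the 6 libraries. The order of MCL1 and BAX depended on the length used, since with the longest transcript BAX was at 80.7 RPKM and MCL1 at 78.0 RPKM, with overlapping ranges.

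**Figure D3:**
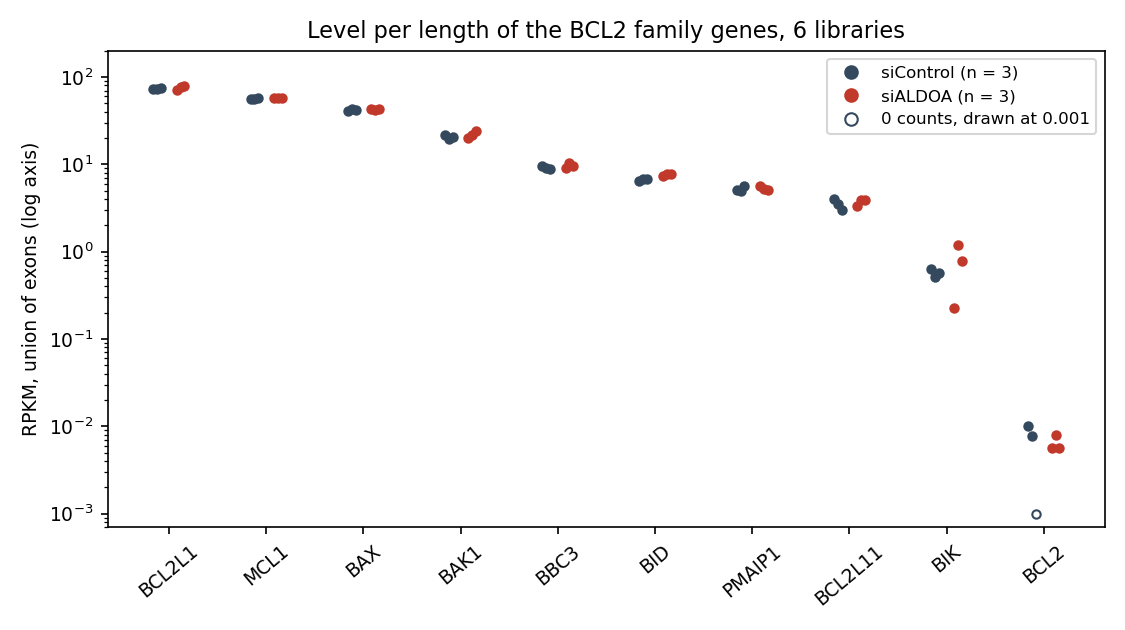
The level per length (RPKM, log axis) of the 10 members is shown for each siControl library (dark) and siALDOA library (red), ordered by the mean of all 6. BCL2L1 lies at 71.7 RPKM or more and BCL2 at 0.0102 RPKM or less, and the open point marks the siControl library with 0 counts of BCL2.

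Ratios within a library do not depend on how libraries are scaled, so 3 were taken between members with opposite roles. The log2 ratio of BAX to BCL2L1 counts was -1.42, -1.56 and -1.60 with siALDOA and -1.55, -1.45 and -1.53 with siControl. The means, -1.53 ± 0.0927 and -1.51 ± 0.0540 (SD, n = 3), differed by less than the spread between replicates. BAX had from 33.0 to 37.3 counts for every 100 counts of BCL2L1, and from 57.2 to 65.1 with the counts of ABALON taken off BCL2L1. The log2 ratio of BAK1 to MCL1 was -2.87 ± 0.121 with siALDOA and -2.96 ± 0.0799 with siControl (SD, n = 3). For PMAIP1 to MCL1 the means were -4.94 ± 0.0997 and -4.95 ± 0.104 (SD, n = 3). The groups overlapped in all 3 ratios. These are ratios of counts, not corrected for gene length, and were not tested.

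**Figure D4:**
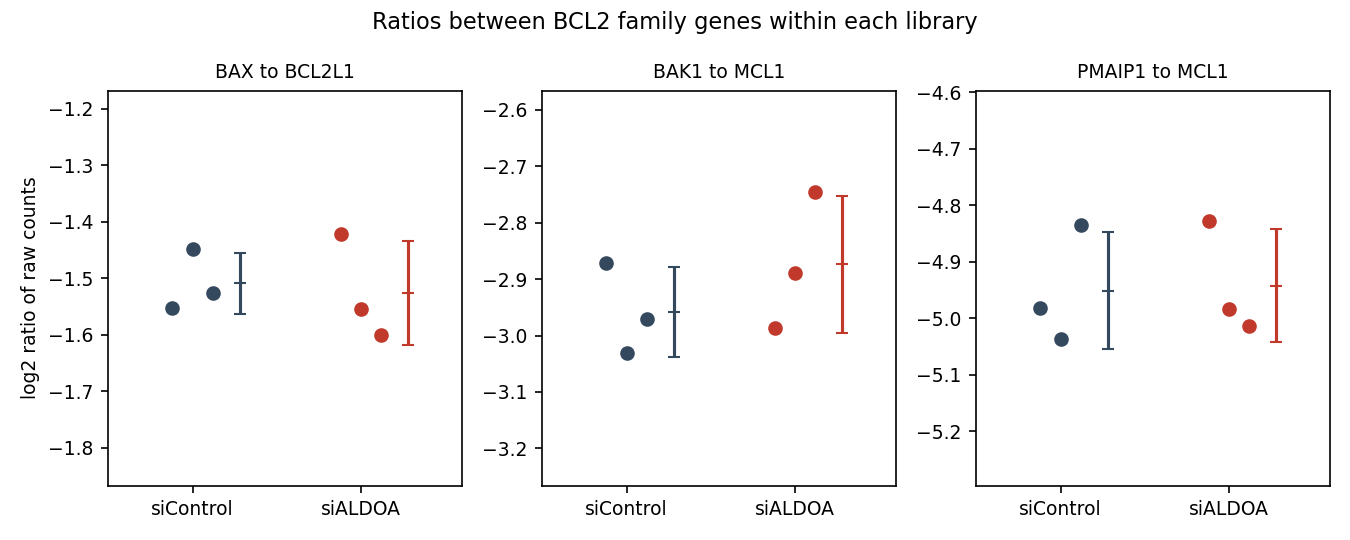
Log2 ratios of raw counts between 2 members are plotted for each siControl library (dark) and siALDOA library (red), with mean and SD as bars and axes of equal height. In each panel the groups overlap, and the group means differ by -0.016 for BAX to BCL2L1, 0.084 for BAK1 to MCL1 and 0.0092 for PMAIP1 to MCL1.

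The wider family and its pathway were read from 5 lists with 58 genes, of which 53 were tested. Together 1 was higher and 7 lower with siALDOA at an adjusted p < 0.05, beside 4.36% higher and 5.29% lower over all tested genes. Among 14 other family genes, 11 were tested and 0 passed in edgeR, limma-voom or DESeq2. At an unadjusted p < 0.05 each tool counted 1, BNIP3L, a mitophagy receptor, at 0.19 on the log2 scale (SE 0.083, edgeR adjusted p = 0.181). The list median was 0.041, beside 0.0016 over all tested genes. BCL2L2, the gene of BCL-W, was at 49.6 ± 2.68 CPM with siALDOA and 46.9 ± 2.75 CPM with siControl (SD, n = 3). The read-through gene BCL2L2-PABPN1 held from 2144 to 3022 counts per library, so the level of BCL2L2 is uncertain. BCL2A1 and BCL2L14 were listed at 0 counts in every library, and HRK at 4 or fewer.

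Downstream of the members, 11 genes of the mitochondrial step and apoptosome were tested, and 0 passed in edgeR, limma-voom or DESeq2. At an unadjusted p < 0.05 each tool counted 2, HTRA2 and VDAC1. The smallest edgeR p was that of HTRA2, a protease of the mitochondrial intermembrane space, at 0.20 on the log2 scale (SE 0.072, adjusted p = 0.0807). APAF1, the scaffold of the apoptosome, had a log2 fold change near 0 at -0.0020 (SE 0.10), and CYCS, the gene of cytochrome c, one of -0.045 (SE 0.061). The median of this list was -0.033. Of 6 inhibitors of apoptosis, 0 passed in any of the 3 tools. At an unadjusted p < 0.05, edgeR counted 0 of them, DESeq2 1 and limma-voom 2. The smallest edgeR p was that of BIRC5, the gene of survivin, at -0.16 on the log2 scale (SE 0.080, adjusted p = 0.218).

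Genes known to act on the turnover of MCL1, NOXA or BIM proteins included 12 tested ones, of which 3 were lower and 0 higher in edgeR, with a list median of 0.028. Over all tested genes 5.29% were lower and 4.36% higher in edgeR. In this list the other tools differed slightly. DESeq2 called 4 lower and limma-voom 3. Both of them called HUWE1, a ubiquitin ligase of MCL1, which edgeR did not, at -0.17 on the log2 scale (SE 0.057, edgeR adjusted p = 0.0686). WSB2, a substrate receptor of a ubiquitin ligase, stood at -0.25 on the log2 scale (SE 0.062, adjusted p = 0.0125). USP13, a deubiquitinase, had -0.42 (SE 0.13, adjusted p = 0.0486), and UBE2K, a ubiquitin-conjugating enzyme, had -0.19 (SE 0.060, adjusted p = 0.0490). All 3 calls were lost with scaling by library totals only (adjusted p = 0.213 for WSB2, 0.137 for USP13 and 0.413 for UBE2K). WSB2 also lost its call without siALDOA replicate 2 (0.0649) or siControl replicate 3 (0.128). USP13 lost it without siALDOA replicate 1 (0.136) or 3 (0.146) and without siControl replicate 2 (0.101) or 3 (0.265). UBE2K kept it only without siALDOA replicate 1 among the fits that left out 1 library, and its adjusted p reached 0.208 without siALDOA replicate 3.

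Upstream regulators of BH3-only genes had 13 tested members, of which 1 was higher and 4 lower, with a list median of -0.18. Over all tested genes 4.36% were higher and 5.29% lower, and the list was chosen with earlier results of these data known. JUN, an AP-1 factor, was at 139, 133 and 132 CPM with siALDOA and at 177, 185 and 174 CPM with siControl. Its log2 fold change was -0.41 (SE 0.056, edgeR adjusted p = 5.02e-05), and it passed under all 14 alternatives. IRF1, an interferon-induced factor, was at 57.0, 65.0 and 66.9 CPM with siALDOA and at 44.5, 46.8 and 52.4 CPM with siControl. Its log2 fold change was 0.39 (SE 0.077, edgeR adjusted p = 0.00196), and it too passed under all 14.

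The other lower regulators were TRIB3 at -0.38 (SE 0.090, edgeR adjusted p = 0.00799), EGR1 at -0.40 (SE 0.12, adjusted p = 0.0362) and DDIT3 at -0.31 (SE 0.091, adjusted p = 0.0349). TRIB3 is a pseudokinase gene and a target of CHOP, which DDIT3 encodes, and EGR1 is an immediate early factor. With scaling by library totals only, none of these 3 passed (adjusted p = 0.0561, 0.107 and 0.178). They also lost their calls without siControl replicate 2 (0.0621, 0.196 and 0.118) or siControl replicate 3 (0.0526, 0.0547 and 0.173). EGR1 further lost it without siALDOA replicate 1 (0.135) or 3 (0.0627), and DDIT3 without siALDOA replicate 3 (0.150). DESeq2 did not call TRIB3 (adjusted p = 0.0894) and called MYC lower (adjusted p = 0.0393), which stood at -0.18 in edgeR (SE 0.060, adjusted p = 0.0663).

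**Figure D5:**
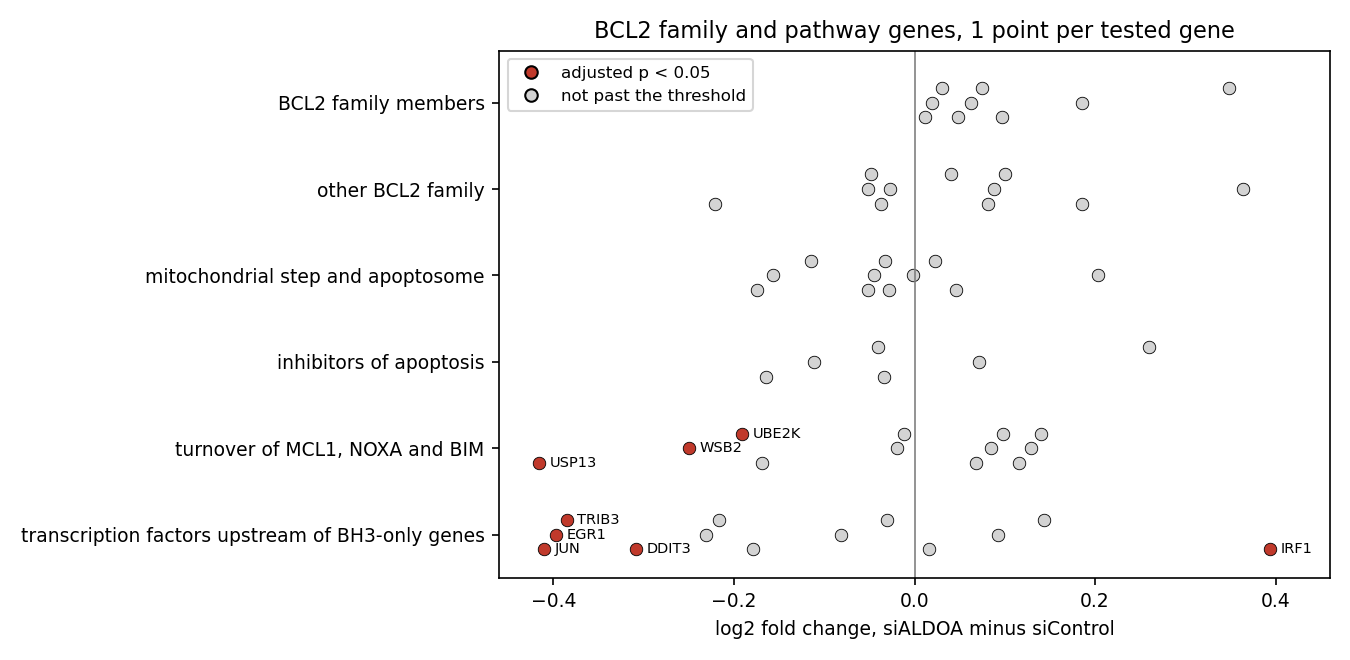
Each point is the log2 fold change (siALDOA minus siControl) of 1 tested gene, with the BCL2 family members in the top row and the 5 pathway lists below. Red points passed an adjusted p < 0.05 in edgeR and carry their symbol, 0 of 9 among the members and 5 of 13 among the upstream regulators. Over all tested genes 9.66% passed, and the lists were chosen with earlier results of these data known.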

How the data were processed

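Gene expression in HT29 was compared between 3 siALDOA and 3 siControl libraries, with all samples grouped by their labels. Paired-end reads had been aligned by the authors with tophat2 (hg38), and gfold then gave read counts by symbol, which were deposited as raw counts. The annotation, the strand setting and the treatment of reads with several matches are not given in the sources used here. For the tests, R 4.3.3 and edgeR 4.0.16 were used (filterByExpr, TMM, quasi-likelihood test, Benjamini-Hochberg adjustment over 15307 genes), without a covariate. An SE was taken as the fitted log2 difference over the root of its F statistic. Totals ranged from 27277538 to 33237914 counts. RPKM used exon lengths of GENCODE release 44, in which all 10 members matched by symbol.

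The members and lists were chosen with earlier results of these data known. All members are named, together with ALDOA and, per list, up to 5 genes past the threshold by p, or otherwise the gene with the smallest p. Some list genes outside this rule (BCL2L2, BCL2A1, BCL2L14, HRK, VDAC1, APAF1, CYCS, HUWE1, MYC) and the markers KRT8, KRT18, KRT19, CEACAM5 and CD14 were named after their values were seen. Alternatives were limma-voom (limma 3.58.1), DESeq2 1.42.0, library totals only, upper quartile scaling, ribosomal RNA genes left out, no filter, a minimum of 10 counts per library, the replicate number as a block, and fits lacking 1 library. Some list genes are not reported here. The methods were tested on simulated data. Every pair of libraries differed beyond sampling noise.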

Additional observations from a re-analysis of the deposited data

How the results depend on the processing

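Under all 14 alternatives 0 members passed an adjusted p < 0.05. With scaling by library totals only, 279 of all tested genes were lower, the pathway lists held 1 lower gene in place of 7, and the median log2 fold change of all genes moved to 0.075, with 76.3% of calls higher against 45.2%. Leaving out 1 library gave from 359 to 644 higher and from 471 to 790 lower genes, lowest without siControl replicates 2 and 3, and in the pathway lists 1 higher gene each time and from 1 to 7 lower. With the longest transcript as length, the mean levels were 96.4 RPKM for BCL2L1, 80.7 for BAX, 78.0 for MCL1, 16.2 for BBC3, 12.6 for BID, 6.07 for PMAIP1 and 4.69 for BCL2L11. With the counts of ABALON taken off, chosen after seeing the data, and the full union of exons kept as length, BCL2L1 was at 43.1 RPKM. Same-numbered libraries deviated together only weakly (correlations of 0.0348, 0.0274 and 0.0262), although each library correlated best with its own number, so the numbers were not taken as pairs. A replicate block gave 987 higher and 1175 lower genes, 2 higher and 10 lower in the pathway lists and 0 members. Among the pathway genes, USP13 also lost its call in limma-voom and both USP13 and UBE2K with upper quartile scaling (adjusted p = 0.0592, 0.0551 and 0.0632). Depth limits BCL2, and BIK rested on 6 to 34 counts per library.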

Other observations

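Promoter sequences of RefSeq (GRCh38.p14) around each gene's start were given for 8 members in 13 entries, and MCL1 and BIK had no entry. Because IRF1 was higher and DDIT3 lower, letters known from sites of their factor families were searched on both strands. GAAA, 2 bases of any kind and GAAA again, the core of interferon-stimulated elements, was in 1 of the members' 13 entries, of BBC3, and in 3.57% of all 35116 promoters. TGATGNAA, the core of sites bound by ATF4 and CHOP, was in 0 of the members' 13 entries and in 3.62% of all promoters. These are matches of letters in this window and say nothing of binding.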
